A study of Pistacia chinensis with 8 samples.

Results

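Bisexual inflorescence buds were compared with female inflorescence buds of the same strain in Pistacia chinensis, the Chinese pistache. Trees of this species are mostly either male or female, and monoecious trees that bear more than 1 kind of flower also occur. The comparison took 4 of the 8 small RNA libraries of the series, chosen by their labels: monoecious bisexual and monoecious female buds, both of strain T2, each at stage B and at stage C of floral development. Each combination of bud type and stage had 1 library. The other 4 libraries held female buds of strain C1 and male buds of strain X1 at the same stages, and are used below as context only. The labels do not say whether a library came from 1 tree or from a pool, nor whether the 2 bud types were taken from the same tree. The comparison within T2 addresses the sex type of the bud with the strain held the same.

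Plant miRNAs are short RNAs cut from hairpin precursors that guide the cleavage or translational repression of messenger RNAs with near-perfect matches. Many ancient families act in flowers: in Arabidopsis, miR167 limits the auxin response factors that are needed for anthers and ovules to mature, and miR160 limits a separate, repressing group of auxin response factors. Other families answer to nutrients, such as miR398, which acts on copper/zinc superoxide dismutases, and miR399, which acts on a regulator of phosphate uptake. Each hairpin gives a 5p and a 3p strand, of which usually 1 accumulates, and a family can be read as several forms that differ by a few bases or by their ends.

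The table held 471 miRNA rows, 385 with miRBase-style names from 67 families and 86 predicted by the authors. At stage B the monoecious female library held 821235 counted reads and the bisexual library 160129, and at stage C they held 512244 and 492859, so a level of 3 reads was worth 5.14, 18.4, 4.81 and 4.61 CPM. Levels are given as TMM-normalised CPM, the counts scaled to a common library size, and a ratio is bisexual over monoecious female with an exact 95% interval that covers counting error only. A row counted as different where its ratio was at least 2-fold and the pair of libraries held at least 50 reads. Such ratios compare libraries, not conditions, and have no replicate check. Rows of a family often held near-identical counts: 195 rows fell into 63 near-identical groups, and 339 groups were distinct in all. As a gap of 2 reads is allowed, rows with very few reads are also joined, so these counts do not measure how many rows shared reads. The bisexual stage B library stood apart in depth and in the strand make-up of some families, so stage C is described first. In whole buds, fewer cells of a type and less RNA per cell cannot be told apart.

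At stage C the pair was alike for most miRNAs, and a short list stood out. Some forms of miR398 and miR160, and miR167, were higher in bisexual buds, with miR399, the 3p strand of miR390, miR477 and 4 predicted miRNAs lower. Of 177 rows with enough reads, 9 (5.08%) were at least 2-fold higher in bisexual buds and 14 (7.91%) at least 2-fold lower, and these formed 7 and 12 distinct groups of 140. With total counts alone as the scale the split was 17 higher and 11 lower, which held all 9 and 11 of the 14. The median log2 ratio was -0.08 and the median absolute log2 ratio 0.36. Across all 471 rows Spearman's rho was 0.94, and 13.0% of the rows with enough reads were past 2-fold. The male and female libraries of that stage, which also differ in strain, had 25.0% past 2-fold and a median absolute log2 ratio of 0.55. Just inside and outside the threshold lay vvi-miR167c at a ratio of 2.15 and gma-miR167h at 1.95, and mes-miR477a at 0.494 and nta-miR477a at 0.501.

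**Figure D1:**
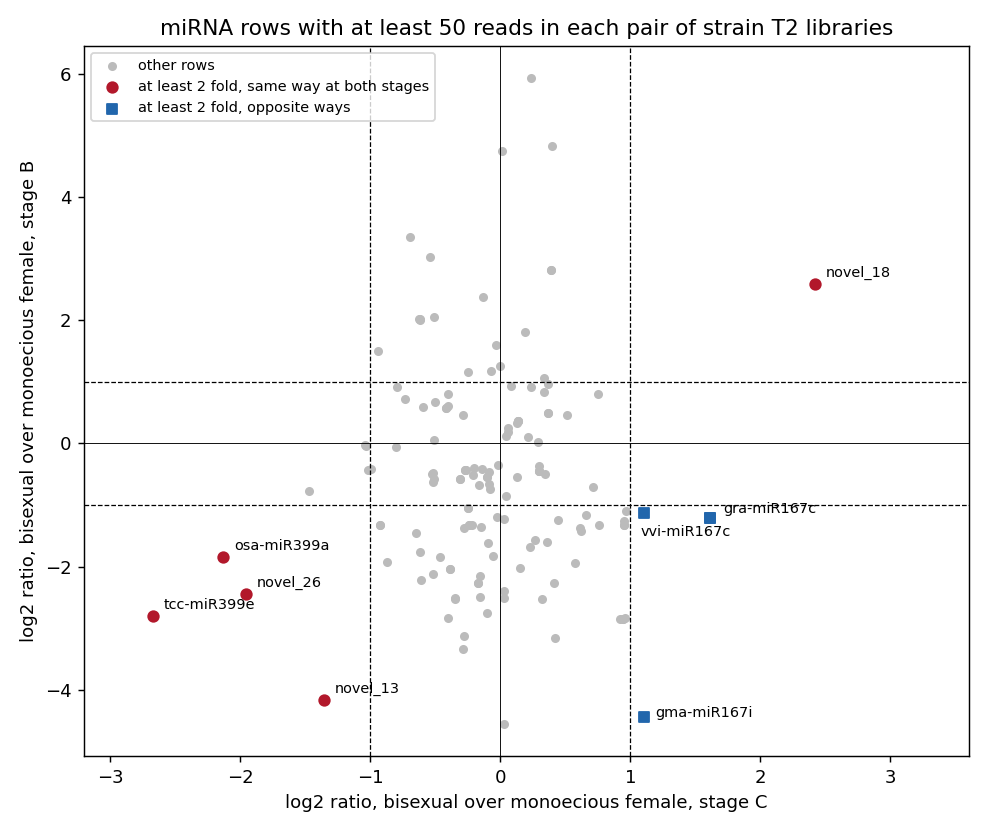
Each point is a miRNA row with at least 50 reads in both pairs of strain T2 libraries; the x axis is the log2 ratio of bisexual over monoecious female at stage C and the y axis the same at stage B, with dashed lines at 2-fold. Points spread far more along the stage B axis, and novel_18 stands alone at the upper right, with novel_13, novel_26, osa-miR399a and tcc-miR399e at the lower left.

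The widest difference at stage C was in miR398. The row ath-miR398a-3p had 36 reads in the monoecious female library (57.7 CPM) and 492 in the bisexual library (755 CPM). That was a ratio of 13.1 (9.33 to 18.9). Male buds of that stage had 416 CPM and female buds 74.4 CPM, so the bisexual library was highest of the 4 and the male library next. The row ahy-miR398 was near-identical, with a ratio of 13.4, and ath-miR398b-3p went from 8 to 56 reads, a ratio of 6.71 (3.18 to 16.3). The most-read row of the family differed little: osa-miR398b had 799 reads in monoecious female and 1049 in bisexual buds, a ratio of 1.26 (1.15 to 1.38), and was lower in male than in female buds, at 0.546 times.

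The difference was thus larger in some forms of miR398 than in others. Shares within a library put the same reads in another way. These pairs of forms were chosen after their values were seen, and a share does not depend on the scale between libraries. Of the reads on ath-miR398a-3p and osa-miR398b together, ath-miR398a-3p took 4.31% (exact interval 3.04 to 5.92) in monoecious female and 31.9% (29.6 to 34.3) in bisexual buds at stage C. It took 6.46% in female and 41.4% in male buds. At stage B its share was 11.3% in monoecious female buds, and 0 of 55 reads in bisexual buds, with an exact upper limit of 6.49%. Summed over its 9 rows, miR398 stood at 1437 CPM in monoecious female and 3256 CPM in bisexual buds at stage C, a ratio of 2.27 (2.09 to 2.45). With near-identical rows counted once the ratio was 1.82, under 2-fold.

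The auxin-related families miR167 and miR160 were the other named miRNAs that were higher. Summed miR167 went from 4093 to 8444 CPM, a ratio of 2.06 (1.97 to 2.16), or 1.97 with near-identical rows counted once. Its row gra-miR167c had 240 reads in monoecious female and 767 in bisexual buds (384 and 1177 CPM), a ratio of 3.06 (2.65 to 3.56). The row gma-miR167i went from 160 to 359 reads, a ratio of 2.15 (1.78 to 2.61), and vvi-miR167c from 223 to 500, also 2.15 (1.83 to 2.53). The most-read row, ath-miR167a-5p, was at 1.54 times (1.38 to 1.72), from 849 to 1309 CPM. All 4 rows were higher in the bisexual than in the monoecious female library, and male buds exceeded female buds on each, at 3.40, 3.59, 3.04 and 2.37 times.

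The miR160 family summed to 673 CPM in monoecious female and 1227 CPM in bisexual buds at stage C, a ratio of 1.82 (1.62 to 2.06), which is under 2-fold. Its forms differed. The row osa-miR160e-5p went from 26 to 83 reads (41.6 to 127 CPM), a ratio of 3.06 (1.95 to 4.95). The row osa-miR160f-5p went from 57 to 45 reads, a ratio of 0.757 with an interval that spans 1 and ends at 1.14. Of the reads on the 2 rows, osa-miR160e-5p took 31.3% (21.6 to 42.4) in monoecious female and 64.8% (55.9 to 73.1) in bisexual buds. The same share was 20.8% in female and 67.5% in male buds. The row csi-miR160, picked after its values were seen, was at 1.89 times (1.45 to 2.49).

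**Figure D2:**
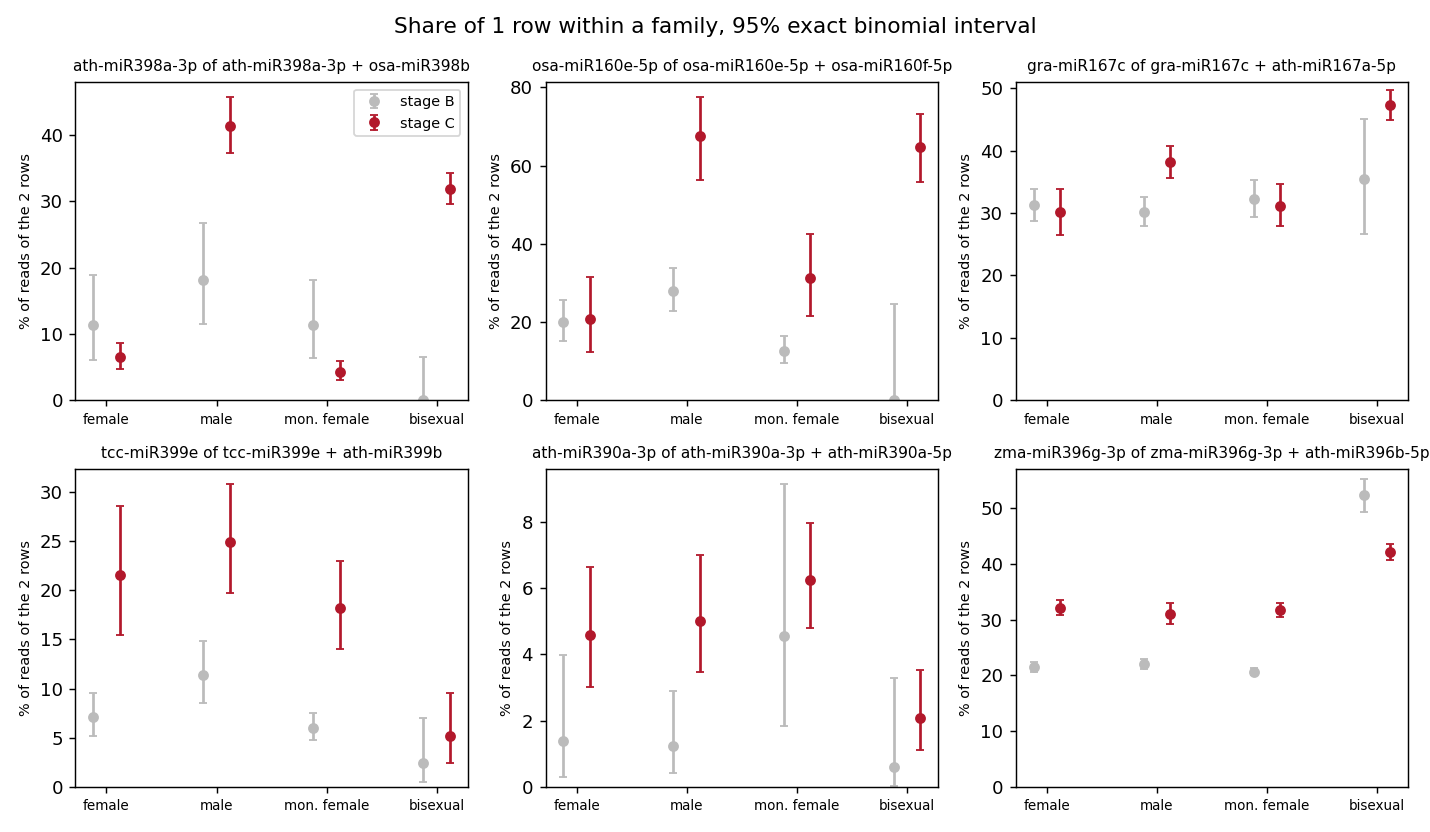
Points give the share, in percent, of reads that 1 form of a family takes out of 2 forms, in each stage C and stage B library, with exact 95% binomial intervals. At stage C ath-miR398a-3p takes 31.9% in bisexual and 41.4% in male buds against 4.31% in monoecious female and 6.46% in female buds.

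On the lower side at stage C, the phosphate-related miR399 had the lowest ratio of the named rows. The row tcc-miR399e had 55 reads in monoecious female and 9 in bisexual buds (88.1 and 13.8 CPM), a ratio of 0.157 (0.0681 to 0.320). The row osa-miR399a had 84 and 20 reads (135 and 30.7 CPM), a ratio of 0.228 (0.133 to 0.375). The bisexual library was the lowest of the 4 at that stage on both, with the dioecious buds between 59.2 and 115 CPM for tcc-miR399e and between 66.6 and 91.3 CPM for osa-miR399a. The most-read row of the family, ath-miR399b, was at 0.638 times (0.520 to 0.779). The share of tcc-miR399e among the reads on it and ath-miR399b was 18.2%, with an interval that ends at 23.0, in monoecious female and 5.17% (2.39 to 9.59) in bisexual buds. The family sum had a ratio of 0.514 (0.437 to 0.605).

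The family miR390 starts the production of small RNAs that act on auxin response factors. Its ath-miR390a-3p strand, the less abundant one, went from 60 to 13 reads on a monoecious female level of 96.1 CPM, a ratio of 0.208 (0.105 to 0.382). The abundant ath-miR390a-5p strand was at 0.652 times (0.587 to 0.723), from 1443 to 941 CPM. The row ath-miR390a-3p thus made up 6.24% (4.80 to 7.96) of the reads on the 2 rows in monoecious female buds. It made up 2.08% (1.11 to 3.53) in bisexual buds, against 4.59% in female and 5.02% in male buds.

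The family miR477, which in trees is predicted to act on GRAS transcription factors, was the 1 family at least 2-fold lower, from 766 to 364 CPM, a ratio of 0.475 (0.405 to 0.556), or a log2 ratio of -0.96, under 2-fold, with total counts alone. Its row mes-miR477d went from 55 to 19 reads, a ratio of 0.331 (0.186 to 0.567), and csi-miR477b from 48 to 19 reads, a ratio of 0.379 (0.211 to 0.657). The most-read row, nta-miR477a, was at 0.501 times. Male buds of stage C were also below female buds on these 3 rows, at 0.499, 0.502 and 0.471 times. At stage B male buds were above female buds on all 3, at 11.5 (3.58 to 59.2), 4.18 (1.31 to 17.4) and 4.70 times (3.12 to 7.26). The row vun-miR164, of a family that limits NAC genes at organ boundaries, went from 93 to 35 reads, a ratio of 0.361 (0.237 to 0.537), while ath-miR164a was at 0.750 times. The rows mes-miR477a at 0.494 times and gma-miR396b-3p and its near-identical copy at 0.488 times completed the rows at least 2-fold lower, and lay outside the rule for naming.

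Of the 86 predicted miRNAs, 35 had enough reads at stage C, with 1 at least 2-fold higher, 4 at least 2-fold lower and a median log2 ratio of -0.41, against -0.08 over all rows. No target or family is given for them in the table. The row novel_18 went from 224 to 1252 reads (359 to 1922 CPM), a ratio of 5.36 (4.64 to 6.20). Female and male buds lay between, at 633 and 677 CPM. The row novel_13 went from 1769 to 722 reads (2834 to 1108 CPM), a ratio of 0.391 (0.358 to 0.427), and novel_26 from 587 to 158 reads (940 to 243 CPM), a ratio of 0.258 (0.215 to 0.308). For novel_26 the bisexual library stood apart from the 3 others, as female and male buds had 913 and 835 CPM. For novel_13 female and male buds had 1231 and 2396 CPM, so the bisexual level lay near the female one. The rows novel_42, at 0.169 times (0.0732 to 0.347), and novel_54, at 0.352 times (0.238 to 0.510), had 9 and 40 reads in bisexual buds. For novel_54 the monoecious female library stood apart at 175 CPM, with female, male and bisexual buds at 74.4, 68.5 and 61.4 CPM.

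**Figure D3:**
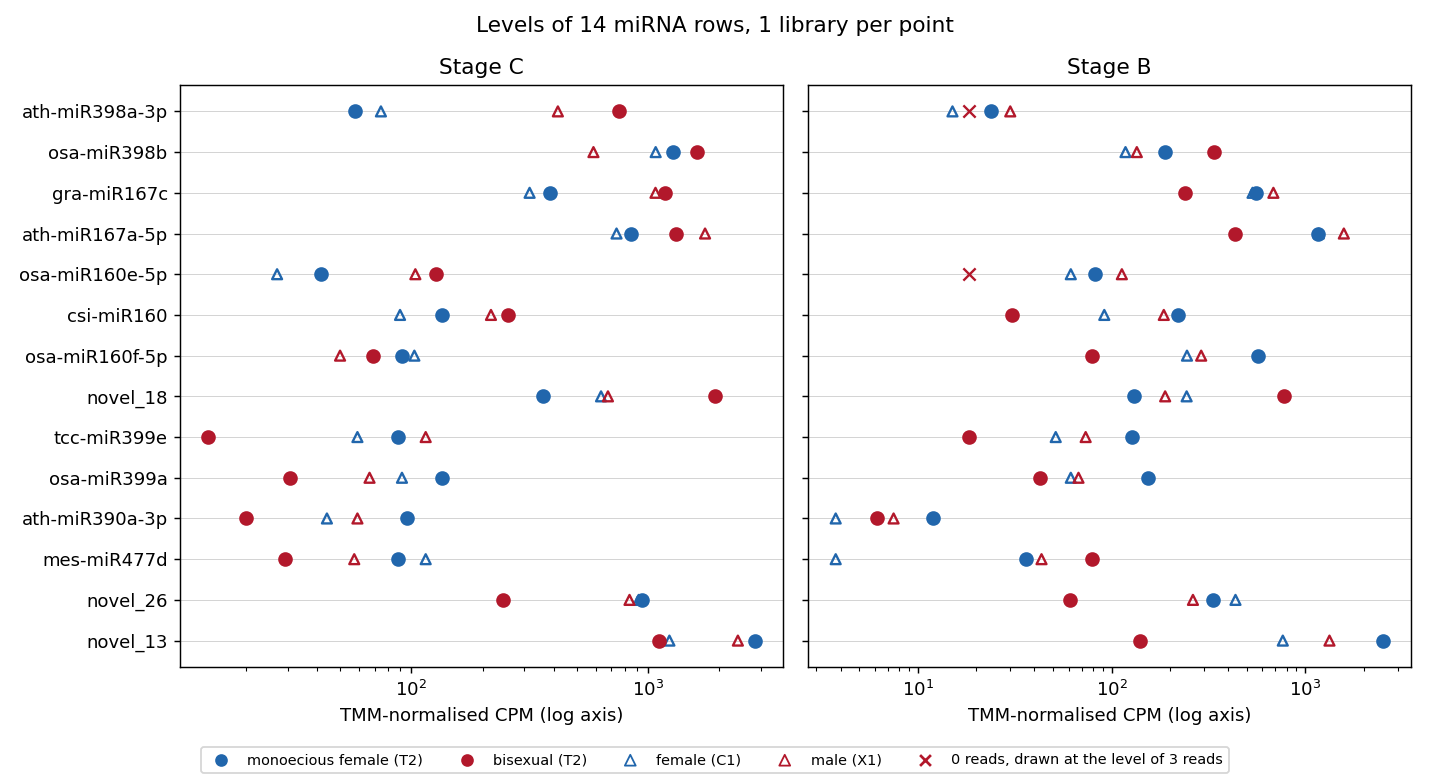
Points give the level of 14 miRNA rows in TMM-normalised CPM on a log axis, 1 library per point, with strain T2 as filled circles and the dioecious buds as open triangles; crosses mark 0 reads. At stage C ath-miR398a-3p, gra-miR167c and osa-miR160e-5p are high in the bisexual and male libraries and low in both female ones, and tcc-miR399e and novel_26 are lowest in the bisexual library.

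Summed by family, 29 families had at least 50 reads in the stage C pair, with 2 (6.90%) at least 2-fold higher and 1 (3.45%) at least 2-fold lower. The floral organ and meristem regulators had none past 2-fold among 9 families tested, and a median log2 ratio of -0.16 against -0.11 over all families. Among them miR159, which acts on GAMYB genes of anthers, was at 0.954 times, miR319, which acts on TCP genes, at 0.940, miR396, which acts on growth-regulating factors, at 0.979, and miR166, which acts on HD-ZIP III genes, at 0.892. The 5 most-read rows belonged to miR159, miR166 and miR319, and their ratios ran from 0.831 for ath-miR166a-3p to 0.941 for ath-miR319a. Families of the same list with lower ratios were miR164 at 0.747, miR171, which acts on HAM-type GRAS genes, at 0.794, and miR169, which acts on NF-YA genes, at 0.632 (0.454 to 0.876).

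Of the phase change families, miR172, which acts on AP2-like floral genes, went from 790 to 471 CPM, a ratio of 0.597 (0.516 to 0.690), and miR156, which acts on SPL genes, was at 1.42 with an interval of 0.897 to 2.28. The auxin list had 1 of 4 families past 2-fold, miR167, and a median log2 ratio of 0.56, with miR393, which acts on auxin receptors, at 1.19 (0.926 to 1.54) and miR390 at 0.633. The nutrient and copper list had 1 of 4, miR398. The sulfate-related miR395 and the copper-related miR408 were at 0.955 and 0.980, each with an interval that spans 1. None of the silencing families (miR168 at 0.854, miR403 at 0.928), the resistance-gene family miR482 (1.18) or the MYB family miR858 (0.765) passed 2-fold, and no anther and pollen family had enough reads. With total counts alone, which raise each stage C log2 ratio by 0.12, the ratios of miR159, miR319, miR396, miR395, miR408 and miR403 and of ath-miR319a lay above 1.

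**Figure D4:**
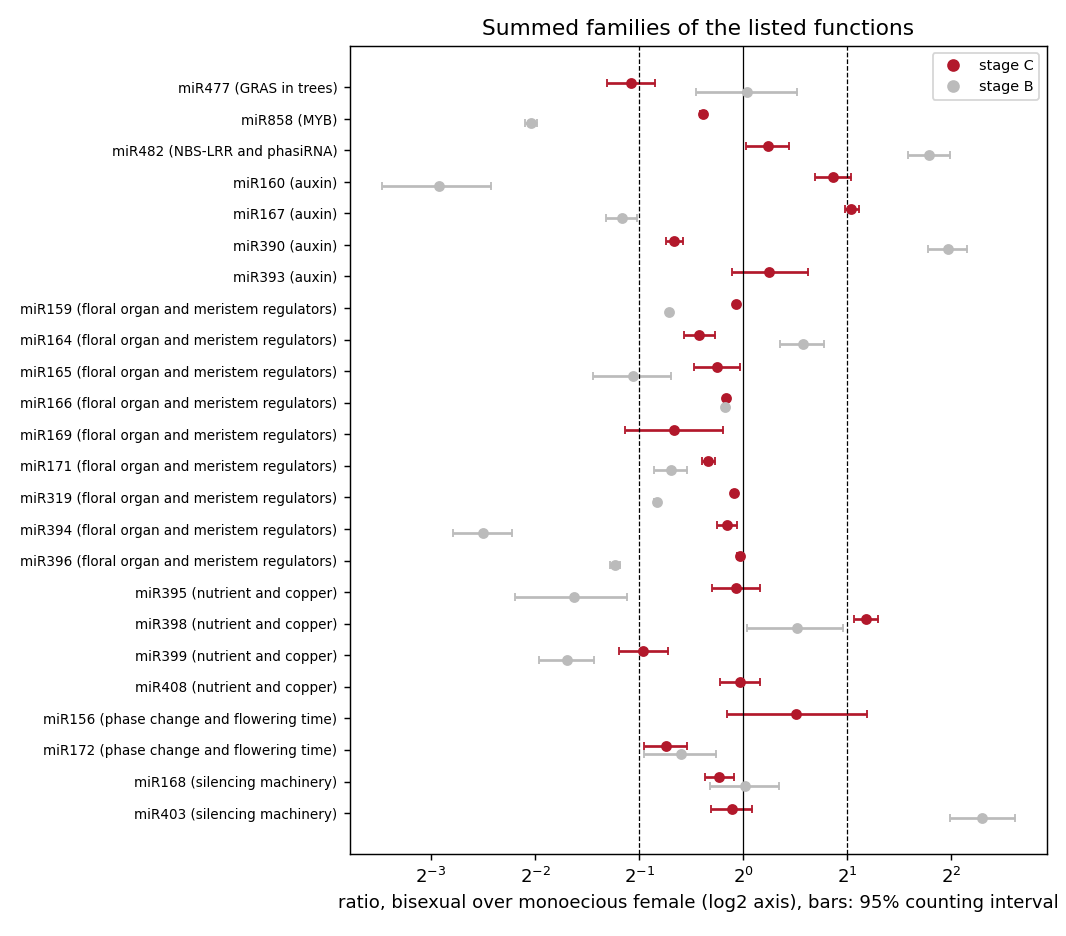
Points give, for each listed family with at least 50 reads in a pair, the ratio of bisexual over monoecious female summed reads at stage C and at stage B with exact 95% intervals on a log2 axis. At stage C the families lie between 0.475 (miR477) and 2.27 (miR398), while at stage B they reach from 0.132 (miR160) to 4.92 (miR403).

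The stage C differences of T2 were then set beside male against female buds, a pair that shares no library with them but compares strain X1 with C1. Of the 9 rows higher in bisexual buds, 8 had enough reads in that pair. All 8, in 6 distinct groups, were higher in male buds, 7 of them at least 2-fold, with a median log2 ratio of 1.81. Those 7 were all rows of miR167, miR398 or miR160, and rows of the same family need not be independent. Over all rows with enough reads in both pairs, 80 were higher in male buds, 26 of them at least 2-fold, and 85 were lower, and the median was -0.08. The 1 row under 2-fold was novel_18, at 1.07 times (0.925 to 1.24). The 14 lower rows were split, with 6 higher and 8 lower in male buds and a median of -0.13. The rows tcc-miR399e and novel_13, lower in bisexual buds, were higher in male buds at 1.94 times (1.26 to 3.02) and 1.95 times (1.78 to 2.13). At stage B, 12 of 21 rows higher and 32 of 66 rows lower in bisexual buds were higher in male buds, against 82 of 147 rows in all.

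**Figure D5:**
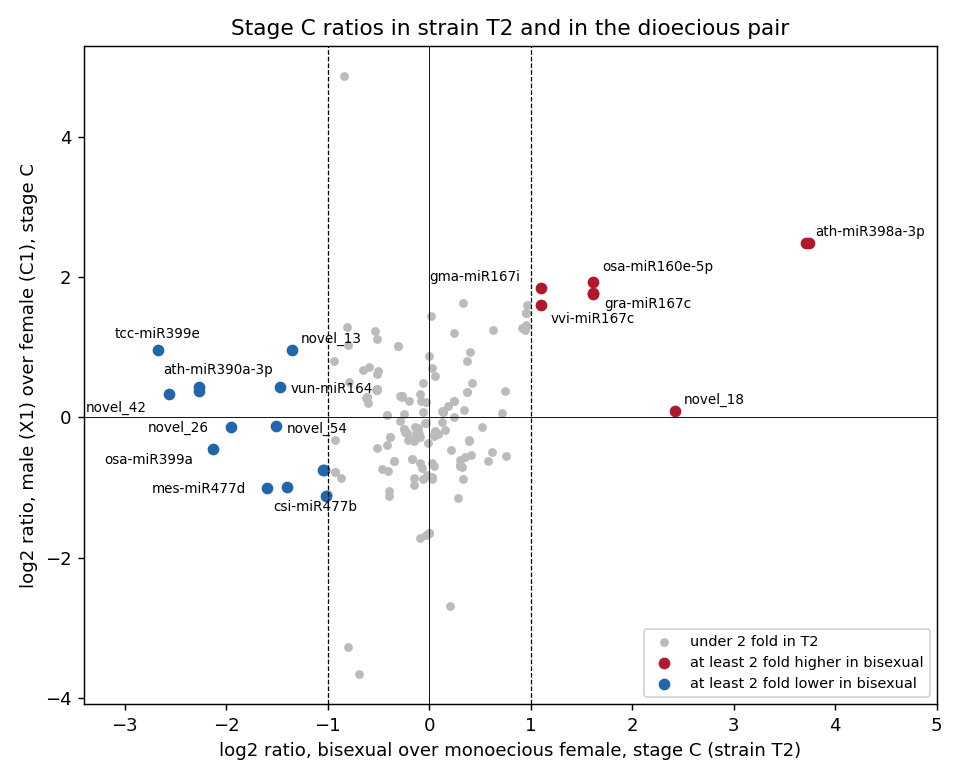
Each point is a miRNA row with at least 50 reads in both stage C pairs; the x axis is the log2 ratio of bisexual over monoecious female (strain T2) and the y axis that of male (X1) over female (C1). All 8 points at least 2-fold to the right lie above 0 on the y axis, and the 14 to the left lie on both sides.

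Stage B gave far wider differences, on a bisexual library with 160129 reads. Of 151 rows with enough reads, 24 (15.9%) were at least 2-fold higher in bisexual buds and 66 (43.7%) at least 2-fold lower. With total counts alone the split was 40 higher and 41 lower, because that scale moves every log2 ratio of the stage by 0.52. The read minimum was on the summed reads of the pair, so a row could pass on the deeper monoecious female library alone. The row gma-miR167i did so, with 232 reads there and 0 in the bisexual library. With each library thinned to the same total, 106 rows had enough reads, 23 at least 2-fold higher and 34 at least 2-fold lower. The part of the read minimum in the split was not tested. On the TMM scale the median log2 ratio was -0.57, and with totals it was -0.05. Spearman's rho across all rows was 0.84, or 0.85 after each library was thinned to the same total. The male and female libraries of stage B had 12.9% of rows past 2-fold. Just inside and outside the threshold lay novel_10 at a ratio of 2.09 and aly-miR167b-3p at 1.95, and aly-miR165a-3p at 0.481 and ptc-miR396g-5p at 0.551.

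By family, 6 of 25 (24.0%) were at least 2-fold higher at stage B and 8 (32.0%) at least 2-fold lower, or 5 lower with total counts alone. Of the families that stood out at stage C, miR167 was at 0.446 times (0.402 to 0.494) at stage B, miR399 at 0.309 (0.257 to 0.370), miR398 at 1.43 (1.03 to 1.95) and miR477 at 1.03 (0.730 to 1.43). The lower call of miR167 ended with RLE factors (log2 -0.80) and with totals (log2 -0.65). With totals miR398 passed 2-fold higher, at a log2 ratio of 1.03. Of the floral organ and meristem regulators, 3 of 8 families were at least 2-fold lower, with a median log2 ratio of -0.77 against -0.17 over all families. These were miR165, miR394 and miR396, of which miR394 alone stayed past 2-fold with RLE factors (log2 -2.13) and with totals (log2 -1.98). Of 28 predicted miRNAs 7 were at least 2-fold higher and 7 lower. The lower families included miR160 at 0.132 (0.0900 to 0.186), miR394, which acts on an F-box gene of meristem maintenance, at 0.177 (0.145 to 0.214), miR858 at 0.243 and miR396 at 0.427. The higher families included miR403, which acts on an Argonaute gene, at 4.92 (3.96 to 6.12), miR390 at 3.91 (3.43 to 4.44) and miR482 at 3.45 (3.00 to 3.96). At stage C the ratios of miR390, miR403 and miR482 were 0.633, 0.928 and 1.18. The most-read row, ath-miR159a, had 309745 CPM in monoecious female and 121369 CPM in bisexual buds, a ratio of 0.392.

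The strand make-up of some families differed in the bisexual stage B library. The row osa-miR166d-5p had 9704 reads there, and 572 in the deeper monoecious female library. It made up 47.3% (46.6 to 48.0) of the reads on it and ath-miR166a-3p, against 1.08% in monoecious female buds and 1.54% in bisexual buds at stage C. Between forms of miR396, the row zma-miR396g-3p took 52.4% of its pair with ath-miR396b-5p, against 20.7% in monoecious female buds. At stage C the same share was 42.2% in bisexual and 31.8% in monoecious female buds, with female and male buds at 32.2% and 31.1%. The counts of zma-miR396g-3p are near-identical to those of ath-miR396a-5p, so the strand in its name is uncertain. The rows bra-miR408-5p and ath-miR408-3p also held equal counts, at 96 reads each in bisexual buds at stage C. Strands are therefore given by row name only. For miR167, miR168 and miR159 a share compares only the most-read row named 5p with the most-read row named 3p. For miR167 these were ath-miR167a-5p and aly-miR167b-3p, with 71 reads each in the bisexual library, where the family summed to 417. The 5p row took between 41.5 and 58.5% of the pair by its interval, against 83.9% (81.2 to 86.4) in the monoecious female library. The 5p row of miR168 took 42.0% (28.2 to 56.8) against 61.5% (53.9 to 68.6), in a family of 100 reads in the bisexual library. That of miR159 took 0.318% against 0.0256%. The less abundant row ath-miR390a-3p did not have a higher share there. It had 1 read and 0.599% of its pair (0.0152 to 3.29) against 7 reads and 4.55% (1.85 to 9.14). Among rows picked after their values were seen, ath-miR8175 was at 28.3 times and novel_19 at 26.9 times at stage B, and at 1.32 and 1.01 times at stage C. The part of depth and of this make-up in the stage B ratios was not tested.

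Of 143 rows with enough reads at both stages, 1 (0.699%) was at least 2-fold higher and 4 (2.80%) at least 2-fold lower in bisexual buds at both. The higher one was novel_18, with 76 and 127 reads at stage B (130 and 778 CPM), a ratio of 5.98 (4.46 to 8.05). The lower ones were tcc-miR399e at 0.143 times at stage B (0.0289 to 0.435, on 75 and 3 reads), osa-miR399a at 0.278 (0.109 to 0.597, on 90 and 7 reads), novel_26 at 0.183 (0.0866 to 0.345) and novel_13 at 0.0559 (0.0354 to 0.0843, on 1471 and 23 reads). All 8 lower rows of stage C with enough reads at stage B were also below 1 there, where 96 of all 143 rows were, or 76 with total counts alone. Among lower rows without enough reads at stage B, mes-miR477d was at 2.21 times there (1.02 to 4.64) and novel_54 at 2.43 (1.23 to 4.69). Also without enough reads, novel_42, ath-miR390a-3p and csi-miR477b were at 0.494, 0.511 and 0.716 times. Of the 5 higher rows of stage C with enough reads at stage B, 1 was above 1 there.

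A further 4 rows (2.80%), in 3 distinct groups, went opposite ways with TMM factors, and all were miR167. The count over all rows was 1 with RLE factors and 5 with total counts alone. The 5 include rows other than these 4, which are not named here. At stage B gra-miR167c and vvi-miR167c were under 2-fold on both of those scales, with log2 ratios of -0.85 and -0.75 with RLE factors and -0.70 and -0.60 with totals, while gma-miR167i stayed past 2-fold at -4.06 and -3.91. The row gra-miR167c, near-identical to ptc-miR167f-5p, was at 3.06 times at stage C and at 0.431 times (0.301 to 0.602) at stage B, on 324 and 39 reads. The row vvi-miR167c was at 0.459 times (0.320 to 0.642) at stage B. The row gma-miR167i had 232 reads at stage B in the monoecious female library and 0 in the bisexual one. With a floor of 3 reads in the bisexual library that was 21.6-fold lower, and the exact interval of the ratio ended at 0.0573. Across the T2 libraries, gra-miR167c stood at 555 and 239 CPM at stage B and at 384 and 1177 CPM at stage C, so the bisexual library was the lowest at one stage and the highest at the other. For ath-miR398a-3p the 14 stage B reads of the monoecious female library against 0 of the bisexual one left no difference detectable at that depth.

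A single model across both stages made no call. In edgeR's quasi-likelihood test with additive terms for stage and sex type, 0 of 248 rows (0%) had a Benjamini-Hochberg adjusted p under 0.05 for bisexual against monoecious female, while 19 rows had an unadjusted p under 0.05 and 10 were called by DESeq2. With 1 library per group the spread in this test is how far sex types differ in their stage effect, on 3 residual degrees of freedom, and not the spread between trees. The smallest edgeR p was that of novel_18, whose log2 change was 2.50 (SE 0.50, adjusted p = 0.385), followed by tcc-miR399e at -2.79 (SE 0.67, adjusted p = 0.385) and novel_26 at -2.15 (SE 0.53, adjusted p = 0.385). Next came novel_60, with 28 and 0 reads at stage B and 24 and 4 at stage C (edgeR adjusted p = 0.521), and osa-miR399a (edgeR adjusted p = 0.531, SE of the log2 change 0.59). The log2 change of novel_60 was -3.50, on few bisexual reads, and ran from -7.41 to -2.90 over the edgeR alternatives. Over the edgeR alternatives the adjusted p of novel_18 ran from 0.00394 to 0.990, those of tcc-miR399e and novel_60 from 0.0430 to 0.990, that of novel_26 from 0.0197 to 0.990 and that of osa-miR399a from 0.0770 to 0.990. The low ends all came from the fit without the bisexual stage C library. That fit kept 1 bisexual library, the one of stage B, set against monoecious female libraries of both stages. Of the 10 DESeq2 calls, 7 were higher and 3 lower. They included novel_18 at 2.70 (SE 0.46, adjusted p = 1.14e-06), novel_26 at -1.96 (SE 0.51, adjusted p = 0.00944), tcc-miR399e at -2.65 (SE 0.80, adjusted p = 0.0281) and novel_13 at -2.35 (SE 0.69, adjusted p = 0.0281). The other 6, all higher, were novel_19, ath-miR8175, the miR396 rows osa-miR396a-3p and zma-miR396g-5p and the miR166 rows osa-miR166b-5p and osa-miR166d-5p, with DESeq2 log2 changes from 3.65 to 5.43 and adjusted p from 0.00944 to 0.0317. Their ratios ran from 26.9 to 60.7 at stage B and from 1.01 to 1.57 at stage C.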

How the data were processed

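Per the labels' protocols, RNA was extracted with a plant kit, and 3 micrograms of it went into each NEBNext small RNA library. The tools were CASAVA 1.8 and Bowtie, per the submitters' processing notes. Each of the mismatch settings, genome build and miRBase release is not given in the sources used here. The authors deposited raw read counts per miRNA row, and TPM values which the authors made by dividing each count by its column total (equal to that within 4.29e-05, with no length term). Only the counts were used, and sequences were not analysed here.

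Counts were normalised with TMM factors from all 8 libraries (edgeR 4.0.16, R 4.3.3). A ratio has an exact 95% interval from the binomial distribution conditional on the pair's reads, and a share an exact Clopper-Pearson interval (Python 3.11.15, scipy 1.17.1). Both cover counting error alone, as the reads carry no molecular identifiers and need not be independent molecules. A count of 0 was set to a floor of 3 reads in that library. Families are the number in the name with rows summed, which counts any reads shared between rows more than once. Near-identical rows differ by at most 5% or 2 reads in each library. The edgeR model took 248 rows, those that reached 10 reads in 2 or more libraries (common dispersion 0.268).

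Named were the 5 most-read rows, up to 10 rows per direction with the largest stage C ratio, rows past 2-fold at both stages in the same or opposite ways, the 5 smallest edgeR p-values, listed families with their most-read row, and families with 2 named strands; exceptions are stated. Members, lists and rules were chosen with earlier results of these data known. Alternatives were RLE factors, total counts, factors from T2 only, other read minimums, 4-fold, thinning to 160129 reads, near-identical rows kept once, DESeq2 1.42.0, other filters, family sums and leaving out each library.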

Additional observations from a re-analysis of the deposited data

Results flagged for a closer look

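In 3 rows of miR167 the bisexual library lay above the monoecious female library at stage C and below it at stage B, each by at least 2-fold. The log2 ratio of gra-miR167c was 1.61 at stage C and -1.22 at stage B, that of vvi-miR167c 1.10 and -1.12, and that of gma-miR167i 1.10 and -4.43. The last value was set by a floor of 3 reads. At stage B the first pair of rows were under 2-fold with RLE factors (log2 -0.85 and -0.75) and with total counts alone (-0.70 and -0.60), so among these scales their opposite calls hold with TMM factors only. With 1 library per bud type and stage the difference between the stages was not tested. The part of the stage B library's depth in it was not tested.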

How the results depend on the processing

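At stage C the count of higher rows was 17 with total counts alone, 80 with no read minimum and 4 at 4-fold; the count of lower rows was 5 at a minimum of 200 reads, 72 with no minimum, 5 at 4-fold and 7 after thinning. At stage B higher rows numbered 40 with totals and 91 with no minimum, and lower rows 41 with totals, 34 at 200 reads, 102 with no minimum, 31 at 4-fold and 34 after thinning. Rows higher at both stages numbered 12 with no minimum; rows lower at both numbered 7 at 20 reads, 2 at 200 reads, 12 with no minimum and 1 at 4-fold. Rows going opposite ways numbered 1 with RLE factors, 5 with totals, 7 at 20 reads, 28 with no minimum and 0 at 4-fold. By family, no family was higher at stage C with near-identical rows counted once (0), none was lower with totals (0), and 5 were lower at stage B with RLE factors and 5 with totals. DESeq2 called 7 rows higher and 3 lower, and leaving out each library gave edgeR counts from 0 to 20 higher and 0 to 34 lower. Without the bisexual stage B library behind the TMM factors, an alternative added after the data were seen, stage C had 12 higher and 11 lower rows. Of the ratios of named rows and families, 39 of 116 left their counting interval with RLE factors and 58 with totals, and none did with T2 factors; none changed direction past 2-fold. The cause of these differences was not tested. No block by replicate number could be fitted, as each group held 1 library; the edgeR model pairs the bud types by stage through its stage term. In the bisexual stage B library 3 reads stood for 18.4 CPM, which limits what could be detected there.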
